A study of Mus musculus with 8 samples.

Results

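Meiotic recombination and repair genes were examined as a group of 33 protein-coding genes out of the 21938 annotated in the mouse genome. They were listed by known function, with earlier results of these data known, and the rule used no measured value. For description, 7 were placed with the formation of DNA breaks, 3 with the processing of broken ends, 15 with the exchange of strands and 8 with crossovers. The placing is coarse: *Zcwpw1*, a reader of the marks that PRDM9 writes, was put with break formation, and *Blm*, which acts against crossovers, with crossovers. All 33 genes were found in the annotation, on 16 autosomes, and none was on X or Y. In male meiosis, programmed DNA breaks are made at hotspots marked by PRDM9, cut back to single-stranded tails, and repaired with the homologous chromosome as template by strand exchange, in which DMC1 acts. Some of the repair intermediates are stabilised and resolved as crossovers, which hold the homologs together until they segregate. Most of this repair takes place from leptonema to late pachynema, and spermatocytes in which it fails are commonly lost in mid pachynema.

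Chromatin accessibility was measured by ATAC-seq, in which a transposase inserts sequencing adapters into open DNA, in 4 *Arid1a* WT and 4 *Arid1a* cKO libraries of pachytene spermatocytes. *Arid1a* encodes the ARID domain subunit of BAF, a SWI/SNF complex that remodels chromatin. The cKO animals carried floxed *Arid1a* alleles (Arid1a fl/fl) together with a Stra8-Cre transgene (Stra8-Cre Tg/0), which is active in the male germ line from spermatogonia onward, and the WT animals were Arid1a fl/fl or Arid1a fl/+ males, listed without the transgene. Both groups thus carried floxed alleles. The floxed allele was kept on a CD1 background. Cells came from testes of several adult males per preparation, were enriched by sedimentation at unit gravity (Sta-Put) rather than by a marker, and were frozen before use. Deletion was incomplete according to the study, so the cKO libraries mixed spermatocytes without ARID1A and spermatocytes that had escaped deletion. The lists hold no reads, and the deletion of *Arid1a* itself was not checked here.

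Each genotype was represented by 1 merged peak list, so the spread between replicates is not known for any value below. There were 19309 peaks in WT and 30244 in cKO, where a peak is an interval in which sequenced fragments piled up above the background of the library. The values of a list came from 1 of its 4 libraries, and the background of that library was 4.33 fragments per base in WT and 5.11 in cKO. A difference between the genotypes and a difference between these 2 libraries cannot be told apart. As a check of the label, all 10 markers of pachytene spermatocytes had a promoter peak in both lists. Of the markers of other cells, promoter peaks were held by 0 (WT) and 2 (cKO) of 7 spermatogonial genes, 3 and 4 of 6 spermatid genes, 3 and 3 of 8 Sertoli and Leydig cell genes, and 0 and 1 of 3 blood genes. Of these, *Gfra1*, *Stra8*, *Sall4*, *Nanos3*, *Dmrt1*, *Tnp1*, *Acrv1*, *Sox9*, *Cyp17a1*, *Hsd3b1*, *Insl3*, *Ptprc* and *Hba-a1* had no promoter peak in either list. The spermatid genes *Tnp2* and *Tssk6* were strong in both lists, with a fold enrichment (pileup over background) of 17.8 and 12.0 in WT and 32.4 and 20.5 in cKO. The spermatid gene *Prm2* had 3.19 in WT and 32.4 in cKO, and *Amh*, a Sertoli cell gene, 3.19 and 13.4. The cKO values of *Prm2* and *Tnp2* were identical, and whether they came from a shared peak was not checked. The WT and cKO values of *Prm2* may thus be of different peaks. *Star* was open in both lists, *Gata4* in WT only, and *Kit*, *Zbtb16*, *Prm1*, *Wt1* and *Cd68* in cKO only, at 3.11 to 3.44. The part of other cells in the results below was not tested.

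Nearly all of the recombination genes had open promoters in both genotypes. The promoter was the stretch between 1000 bp before and 100 bp after each annotated start of a gene, and it counted as open when a peak shared at least 1 bp with it. In the WT list 31 of the 33 genes (93.9%) had a promoter peak, against 49.7% of all protein-coding genes and 51.1% of the autosomal ones. In the cKO list 32 of 33 (97.0%) had one, against 56.7% of all genes. *Mei1* alone had a promoter peak only in the cKO list, against 7.31% of all genes, and no member had one only in the WT list, against 0.269%. *Rec114* had none in either list, as did 43.0% of all genes. When only peaks on 3 or more rows of the merged list were kept, 30 members in WT and 32 in cKO had a promoter peak, against 46.5% and 54.9% of all genes. A row is a stretch that a peak shared with a peak of another replicate, and 1 replicate can add several rows.

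**Figure D1:**
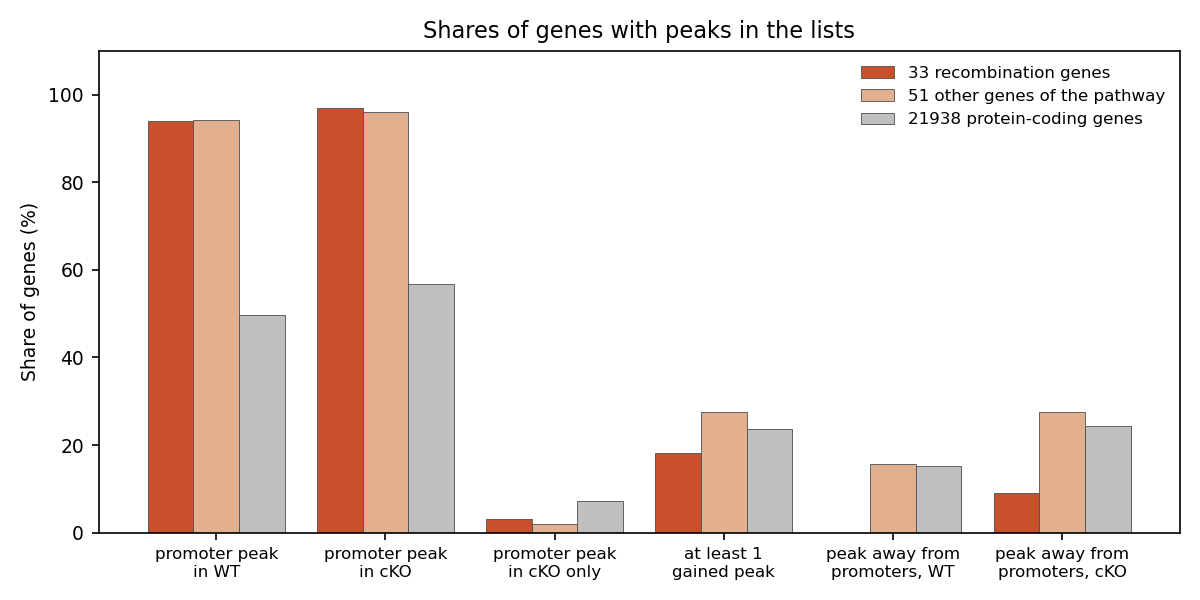
Percentage of genes (y axis) with each kind of peak (x axis) among the 33 recombination genes, 51 other genes of the pathway and all 21938 protein-coding genes. The promoter bars of the recombination genes stand at 93.9% and 97.0%, above the 49.7% and 56.7% of all genes. No recombination gene had a WT peak away from promoters, against 15.7% of the other genes of the pathway and 15.1% of all genes.

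The promoters were more strongly enriched in the cKO list, by about as much as promoters in general. Strength was taken as the fold enrichment of the strongest promoter peak, that is, the summit pileup plus 1 divided by the library background plus 1. The median over the 31 genes open in both lists was 9.76 in WT and 16.2 in cKO. The same medians over all 10839 genes open in both lists were 8.63 and 13.7. The enrichment was higher in cKO for 31 of 31 members and for 97.9% of all genes. On the log2 scale the median ratio of cKO to WT was 0.67 for the members (95% order-statistic interval, 0.58 to 0.80), a linear ratio of 1.59, and 0.65 for all genes, a linear ratio of 1.57, so the medians differed by 0.03. At least 2 times higher enrichment was seen for 1 member, *Rad50*, against 7.05% of all genes. With bare fragment numbers at the summit in place of fold enrichment, which are not divided by the background of the library, the count was 10 members, against 28.8% of all genes.

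**Figure D2:**
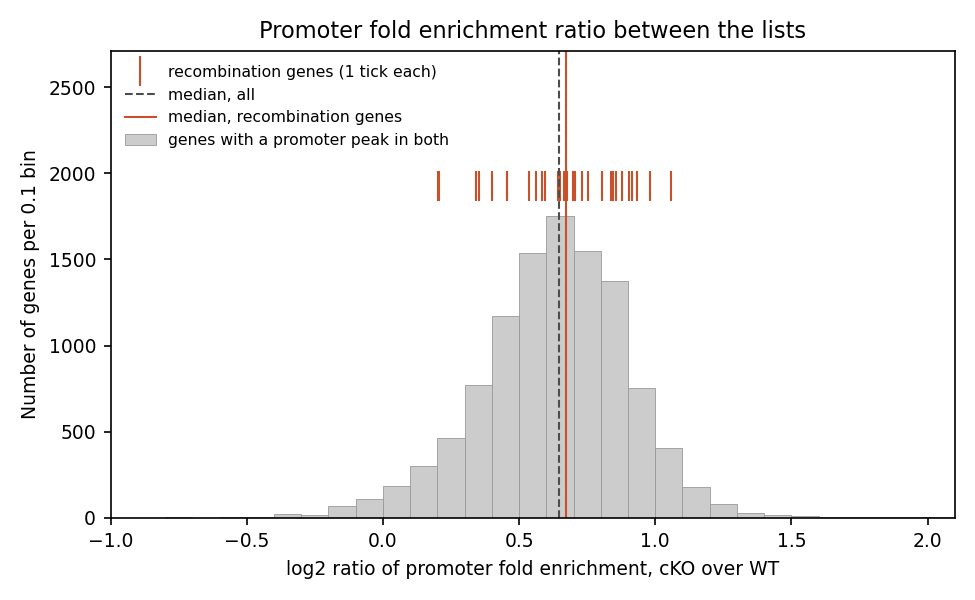
Number of genes (y axis, bins of 0.1) by the log2 ratio of promoter fold enrichment in cKO over WT (x axis), for all genes with a promoter peak in both lists, with 1 tick for each of the 31 recombination genes. The medians of the recombination genes (0.67) and of all genes (0.65) lie beside each other, and the ticks span 0.20 to 1.06.

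The log2 ratios of the members ranged from 0.20 for *Mcmdc2* and *Mei4* to 1.06 for *Rad50*. Their standard deviation was 0.22, against 0.29 over all genes. How much of this spread is counting error was not tested, so the order of the members and of the roles is descriptive only. Each fold enrichment was given a 95% Poisson interval of the fragment number at the summit, which covers counting error only. The intervals of the genotypes lay apart, with cKO higher, for 16 of 31 members and for 41.1% of all genes, and they overlapped for the other 15 members. By role, the median log2 ratio was 0.80 for the 5 break formation genes open in both lists, 0.65 for the 3 end processing genes, 0.68 for the 15 strand exchange genes and 0.66 for the 8 crossover genes.

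**Figure D3:**
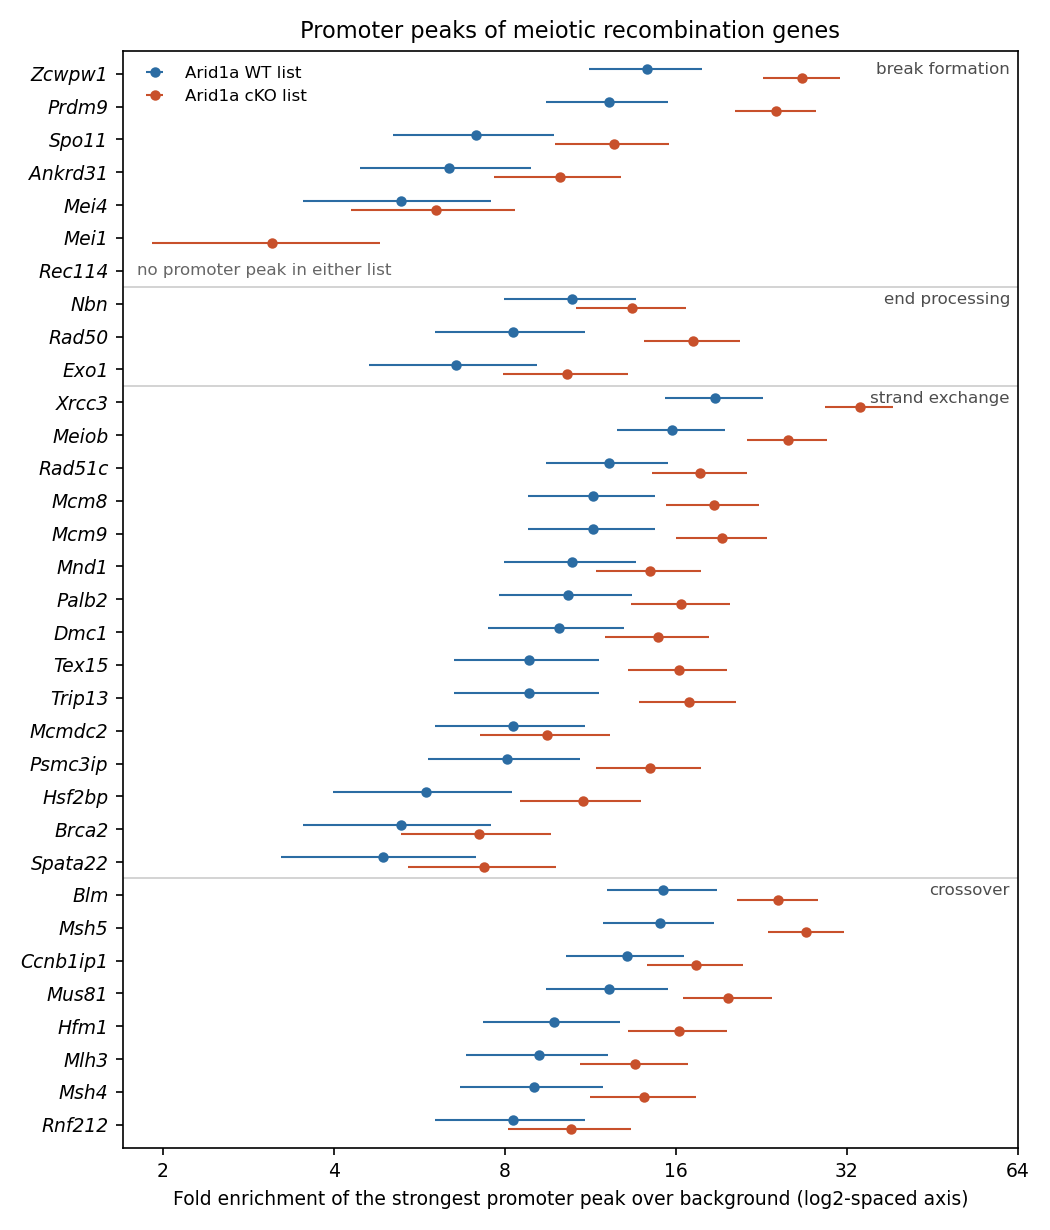
Fold enrichment of the strongest promoter peak (x axis, spaced in powers of 2) of each gene (y axis, grouped by role), as points with 95% Poisson intervals of the summit count, for the *Arid1a* WT and *Arid1a* cKO lists. Each cKO point lies to the right of its WT point, with the intervals apart for 16 of 31 genes, and *Rec114* has no point.

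Among the genes placed with break formation, the hotspot genes *Prdm9* and *Zcwpw1* had the strongest promoter peaks, that of *Zcwpw1* being shared with *Mepce*. Those for the accessory factors of SPO11 were the weakest. *Prdm9*, the methyltransferase whose zinc fingers place the breaks, had the peak chr17:15563740-15564791 in WT, with a fold enrichment of 12.2 (9.43 to 15.5) and 64 fragments at the summit. In cKO the peak was chr17:15563521-15565116, with 24.1 (20.3 to 28.3) and 146 fragments, the second-highest log2 ratio of all members at 0.98. *Zcwpw1*, a reader of the histone marks that PRDM9 writes, had 14.3 in WT and 26.7 in cKO, a log2 ratio of 0.90. Its peak was centred 1174 bp upstream of the *Zcwpw1* start in WT and 2591 bp in cKO, and where the summit lay was not checked. When peaks had to be centred in the promoter, *Zcwpw1* had no promoter peak in either list. *Spo11*, the transesterase that makes the breaks, had 7.13 (5.07 to 9.76) and 37 fragments in WT, and 12.4 (9.82 to 15.5) and 75 fragments in cKO. Its peak was at the annotated start at 172979849 of chromosome 2, inside the gene span that begins at 172977700. For *Prdm9*, *Zcwpw1* and *Spo11* the counting intervals of the genotypes lay apart.

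The accessory factors were low in both lists. *Ankrd31*, a partner of REC114 that directs breaks to the pseudoautosomal region, had 6.38 in WT and 9.98 in cKO, with overlapping intervals. *Mei4*, a partner of REC114 in the complex that activates SPO11, had chr9:81863365-81863869 in WT at a fold enrichment of 5.25 (3.53 to 7.56), with 27 fragments on 2 rows. In cKO it had chr9:81863231-81863879 at 6.05 (4.29 to 8.32), with 36 fragments on 3 rows, and the intervals overlapped. *Mei1*, also needed for break formation, had its only peak in cKO, at chr15:82070016-82070497, with a fold enrichment of 3.11 (1.91 to 4.82), 18 fragments, a −log10 q of 3.68 and 3 rows. This peak covered bases 19 to 500 downstream of an annotated start at 82069997, and it was near the lowest summit of the cKO list, which was 14 fragments. At the start that RefSeq gives for *Mei1*, 82082476, neither list had a peak, and the nearest was 34818 bp away in WT and 11979 bp away in cKO. *Rec114* had no peak within its gene or its promoter. The peak nearest to its RefSeq start at 58741559 of chromosome 9 was 81296 bp away in WT and 80769 bp away in cKO.

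The 250 bases that precede the RefSeq starts of these 4 genes are shown from assembly GRCm38.p6, the build of mm10. The promoter calls of the genes ran from closed (*Rec114*) through cKO only (*Mei1*) and weak (*Mei4*) to strong (*Prdm9*). The *Mei1* window shown had no peak in either list, because the cKO peak of the gene lay 11979 bp from this start. *Mei1* was selected by rule, and the others after their values were seen. *Mei1* is at chr15:82082226-82082475 on the forward strand, *Rec114* at chr9:58741560-58741809 on the reverse, *Mei4* at chr9:81863420-81863669 on the forward and *Prdm9* at chr17:15564355-15564604 on the reverse. Capitals mark matches, on either strand, to any of 7 motifs that were searched, namely the STRA8 element CNCCTCAG, the E-box with the letters CACGTG, the E2F motif with the letters GGCGGGA, the box that takes its name from its letters CCAAT, the GC box with the letters GGGCGG, the MYB motif with the letters CNGTTG, and the cAMP response element core TGACGT.
Mei1: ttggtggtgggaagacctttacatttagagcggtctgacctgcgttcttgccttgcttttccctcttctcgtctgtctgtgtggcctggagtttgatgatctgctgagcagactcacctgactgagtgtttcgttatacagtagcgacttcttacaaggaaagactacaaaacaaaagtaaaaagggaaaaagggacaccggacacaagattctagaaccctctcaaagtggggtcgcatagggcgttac
Rec114: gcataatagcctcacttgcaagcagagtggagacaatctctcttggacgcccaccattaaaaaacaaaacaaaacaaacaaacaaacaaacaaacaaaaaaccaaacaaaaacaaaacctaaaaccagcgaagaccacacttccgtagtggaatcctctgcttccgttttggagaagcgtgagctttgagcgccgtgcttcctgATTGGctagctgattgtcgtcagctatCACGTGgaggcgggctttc
Mei4: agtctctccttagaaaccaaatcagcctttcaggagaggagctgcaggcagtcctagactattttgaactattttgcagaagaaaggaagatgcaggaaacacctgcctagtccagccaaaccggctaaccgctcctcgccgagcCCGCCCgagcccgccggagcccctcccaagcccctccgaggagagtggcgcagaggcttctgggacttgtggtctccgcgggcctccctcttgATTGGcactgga
Prdm9: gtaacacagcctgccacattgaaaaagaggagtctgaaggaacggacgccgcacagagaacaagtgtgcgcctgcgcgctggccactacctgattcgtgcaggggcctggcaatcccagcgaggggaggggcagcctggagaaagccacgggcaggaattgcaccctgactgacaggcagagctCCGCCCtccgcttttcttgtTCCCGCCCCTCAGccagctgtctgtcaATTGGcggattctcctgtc
*Prdm9* held a run of overlapping matches in which GGCGGGA began at base 205, GGGCGG at 207 and CNCCTCAG at 210, counted from the 5′ end, beside another GGGCGG at 185 and a CCAAT at 232. *Rec114*, which had no peak, held a CCAAT at base 205 and a CACGTG at base 232. *Mei4* held a GGGCGG at base 146 and a CCAAT at base 239. *Mei1* held none of the 7, which says only that these letters are not in this window.

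Of the genes that process the broken ends, *Rad50* had the highest ratio of all members. *Rad50* and *Nbn* encode parts of the MRE11 complex, which opens and trims the ends. The *Rad50* promoter peak was chr11:53706747-53707457 in WT, with a fold enrichment of 8.25 (6.03 to 11.1) and 43 fragments, and chr11:53706554-53707941 in cKO, with 17.2 (14.1 to 20.8) and 104 fragments. Its log2 ratio of 1.06 was at percentile 95.2 among all genes open in both lists. *Nbn* was less different, with 10.5 (7.96 to 13.6) in WT and 13.4 (10.7 to 16.6) in cKO. *Exo1*, the exonuclease of long-range resection that also acts with the MutLγ complex in crossing over, had 6.57 in WT and 10.3 in cKO, with a log2 ratio of 0.65 at the level of the median gene. The intervals overlapped for *Nbn* and *Exo1*.

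All 15 strand exchange genes were open in both lists. *Dmc1*, the meiosis-specific recombinase, had a fold enrichment of 9.94 (7.47 to 13) in WT and 14.9 (12 to 18.3) in cKO. For the HOP2-MND1 heterodimer, which stimulates DMC1, *Psmc3ip* (HOP2) had 8.07 (5.87 to 10.8) in WT and 14.4 in cKO. *Mnd1* had 10.5 (7.96 to 13.6) and 14.4, so the cKO values were equal and the WT intervals overlapped. *Meiob* and *Spata22* encode partners in a complex that binds single-stranded DNA, and their promoters were far apart in strength. *Meiob* had chr17:24803583-24804948 at 15.8 (12.6 to 19.5) and 83 fragments in WT, and chr17:24803198-24804961 at 25.2 (21.4 to 29.5) and 153 fragments in cKO. *Spata22* had 4.88 (3.22 to 7.11) and 25 fragments in WT, the lowest WT value of the 31 genes, and 7.36 (5.40 to 9.83) and 44 fragments in cKO.

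The genes that support strand exchange included weak promoters and the strongest of the group. *Brca2*, whose product delivers DMC1 to DNA, was among the weakest promoters with 5.25 in WT and 7.20 in cKO, and *Palb2*, the partner that recruits BRCA2, had 10.3 and 16.4. *Hsf2bp*, which links BRCA2 to meiotic breaks, had 5.82 (3.98 to 8.22) in WT and 11.0 (8.52 to 13.9) in cKO. *Rad51c*, a gene of homologous recombination repair, had 12.2 and 17.7. Its partner *Xrcc3* had the strongest promoter of all members in either list: chr12:111813123-111814660 at 18.8 (15.3 to 22.8) and 99 fragments in WT, and chr12:111813113-111815005 at 33.7 (29.3 to 38.6) and 205 fragments in cKO. *Hsf2bp* and *Xrcc3* had intervals that lay apart, while those of *Brca2*, *Palb2* and *Rad51c* overlapped.

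The MCM-related genes spanned the range. *Mcmdc2*, an MCM-like gene needed for homolog pairing through strand invasion, had chr1:9907940-9909450 at 8.25 (6.03 to 11.1) and 43 fragments in WT, and chr1:9907398-9909443 at 9.49 (7.23 to 12.2) and 57 fragments in cKO, the lowest log2 ratio at 0.20. *Mcm8* and *Mcm9*, which encode the subunits of a helicase of recombinational repair, had the same WT value of 11.4, and 18.7 and 19.3 in cKO. *Mcm9* had a further promoter peak at an internal start that it shared with *Asf1a*, with 7.32 in WT and 10.6 in cKO. *Tex15*, which is needed for DMC1 to load, had 8.82 in WT and 16.2 in cKO. *Trip13*, an ATPase that removes HORMA domain proteins from the axes, had chr13:73937164-73938096 at 8.82 (6.51 to 11.7) and 46 fragments in WT, and chr13:73937100-73938461 at 16.9 (13.8 to 20.4) and 102 fragments in cKO, the third-highest log2 ratio at 0.93. For *Mcm8*, *Mcm9*, *Tex15* and *Trip13* the intervals lay apart, and for *Mcmdc2* they overlapped.

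The 8 crossover genes were likewise open in both lists. The MutSγ partners *Msh4* and *Msh5*, which stabilise the intermediates of crossing over, had 9.0 and 15 in WT, and 14.1 and 27.2 in cKO. *Mlh3*, the endonuclease subunit of MutLγ, had 9.19 in WT and 13.6 in cKO. *Hfm1*, a helicase required for most crossovers, had 9.76 (7.31 to 12.8) in WT and 16.2 (13.2 to 19.7) in cKO. Of the genes that act against crossovers or by another pathway, the helicase gene *Blm* had chr7:80534440-80535478 at 15.2 (12.1 to 18.9) and 80 fragments in WT, and chr7:80534187-80535848 at 24.2 (20.5 to 28.4) and 147 fragments in cKO. *Mus81*, an endonuclease of the other crossover pathway, had 12.2 in WT and 19.8 in cKO. The intervals lay apart for *Msh5*, *Hfm1*, *Blm* and *Mus81*, and overlapped for *Msh4*, *Mlh3*, *Rnf212* and *Ccnb1ip1*.

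The genes of RNF212 and HEI10, ligases that help to select crossover sites, were among those with the smallest ratios. *Rnf212* had chr5:108774383-108775314 at 8.25 (6.03 to 11.1) and 43 fragments in WT, and chr5:108774271-108775459 at 10.5 (8.09 to 13.4) and 63 fragments in cKO, a log2 ratio of 0.34. *Ccnb1ip1* (HEI10) had its strongest promoter peak, with 13.1 in WT and 17.3 in cKO, at an upstream start that lies beside the starts of *Parp2* and *Rpph1*, at chr14:50807372-50808192 in WT. At the start that RefSeq gives for *Ccnb1ip1*, 50795728, a separate weaker peak had 5.25 (3.53 to 7.56) and 27 fragments in WT, and 4.75 (3.21 to 6.79) and 28 fragments in cKO. The log2 ratio of this peak was -0.15, below that of every member's strongest peak, with intervals that overlapped. The 250 bases before that start, chr14:50795729-50795978 on the reverse strand of GRCm38.p6, are shown because the peak there was the only promoter peak of a member that was not higher in cKO, and they were picked after its values were seen. Capitals mark a match to GGCGGGA on the other strand, at base 230 from the 5′ end, and none of the other 6 motifs matched.
Ccnb1ip1: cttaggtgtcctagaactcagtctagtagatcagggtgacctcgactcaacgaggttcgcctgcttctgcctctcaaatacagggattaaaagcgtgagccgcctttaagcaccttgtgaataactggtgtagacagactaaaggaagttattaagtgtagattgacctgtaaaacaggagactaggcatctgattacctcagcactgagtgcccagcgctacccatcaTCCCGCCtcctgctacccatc

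Promoter peaks were also wider in the cKO list, again by about as much as elsewhere. The median width of the strongest promoter peak was 933 bp in WT and 1362 bp in cKO for the 31 genes, and 1072 and 1577 bp for all genes open in both lists. The peak was wider in cKO for 31 of 31 members and for 95.3% of all genes, and the median ratio of the widths was 1.41 for members and 1.44 for all genes. The widest cKO peak was that of *Mlh3*, which ran over 2026 bp in WT (chr12:85270160-85272185) and 6759 bp in cKO (chr12:85270178-85276936), where it joined 3 WT peaks into 1. That of *Zcwpw1* ran over 3461 bp in WT (chr5:137784894-137788354) and 6427 bp in cKO (chr5:137781994-137788420), where it joined 2 WT peaks. The *Mus81* peak had the smallest ratio, at 3972 bp (chr19:5487703-5491674) and 4101 bp (chr19:5487574-5491674), and the *Hsf2bp* peak the largest, at 718 bp (chr17:32035951-32036668) and 3004 bp (chr17:32033858-32036861). The *Hsf2bp* start in RefSeq, at 32034508, lay 1443 bp from the WT peak and inside the cKO peak. Depth was higher in the library behind the cKO list (5.11 against 4.33 background fragments per base), and its part in the widths was not tested.

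**Figure D4:**
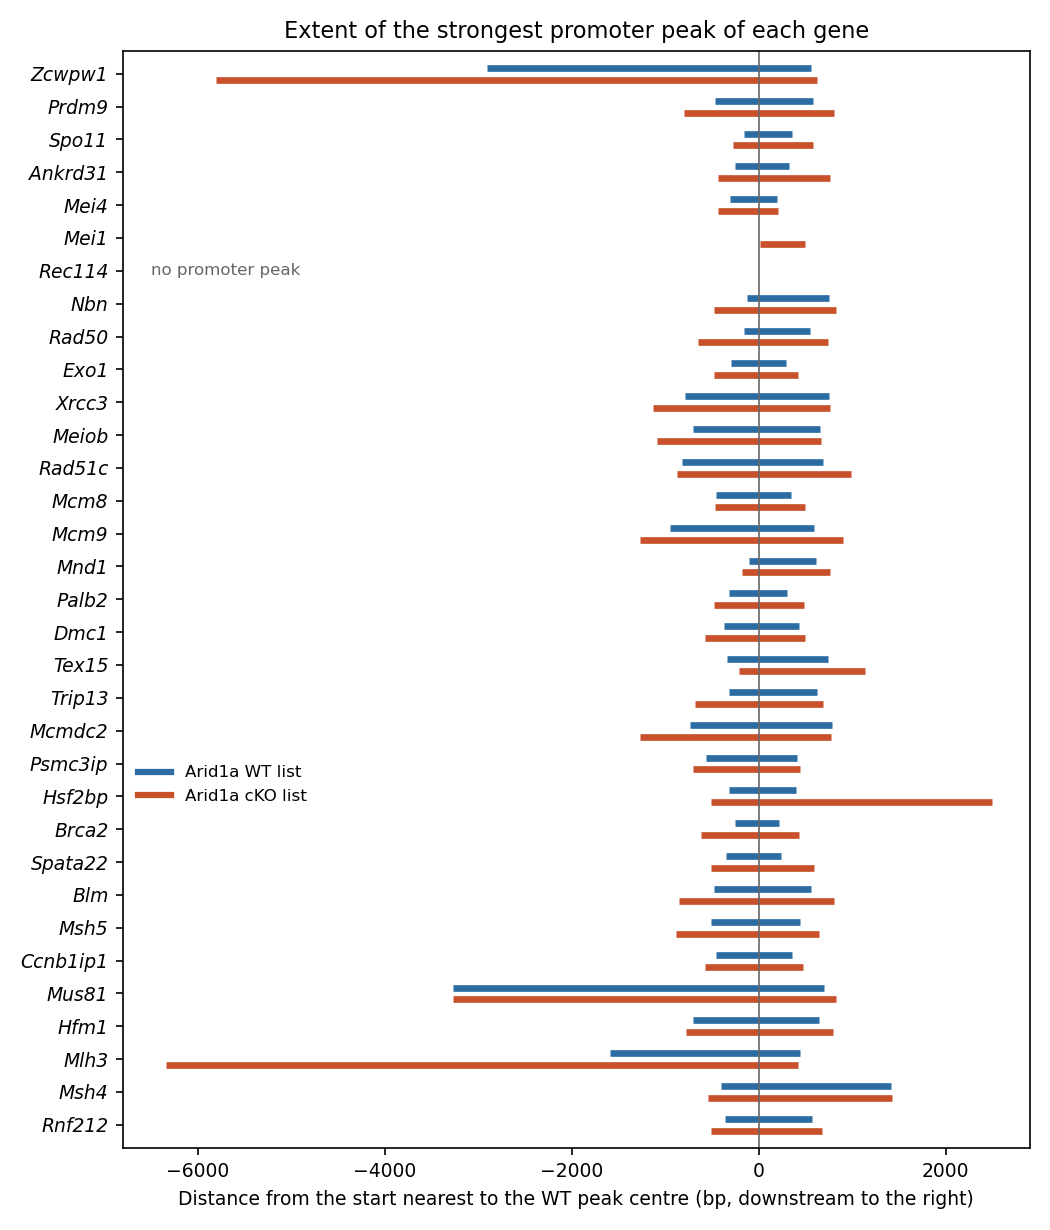
Extent of the strongest promoter peak of each gene (y axis) in the *Arid1a* WT and *Arid1a* cKO lists, in bp from the annotated start nearest to the centre of the WT peak, or of the cKO peak for *Mei1* (x axis, upstream to the left). The cKO bars of *Mlh3* and *Zcwpw1* reach farthest upstream, at 6759 and 6427 bp in all, and that of *Hsf2bp* reaches farthest downstream.

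Within the gene bodies and 1000 bp upstream of them, a total of 1844 kb, the WT list had 33 peaks and the cKO list 39. Every one of the 33 WT peaks was a promoter peak, so that 0 members had a WT peak away from promoters, against 15.1% of all genes. In cKO 3 members had one (9.09%), against 24.4% of all genes, although the members' spans were longer, with a median of 36500 bp against 18425 bp. Of the 51 other genes of the pathway, 15.7% had such a peak in WT and 27.5% in cKO, near the shares of all genes. A peak was called gained when it shared no base with a WT peak, and lost in the opposite case. There were 6 gained peaks in 6 members (18.2%), against 23.6% of all genes, and 0 lost peaks, against 2.20% of genes. Per 100 kb of span this came to 0.33 gained peaks for the members and 0.74 for all genes. The rate is pooled over spans of unlike length, such as the 343338 bp of *Mei4* and the 162768 bp of *Ankrd31*. Promoters already open in WT were also more frequent among the members, at 93.9% against 49.7%. The part of either in the rate was not tested. The cKO list was the longer one, and with only its strongest 19309 peaks, as many as in WT, 2 gained peaks in 2 members were left, against 8.80% of all genes with at least 1. The count was 3, in 3 members, when a −log10 q of 5 or more was required, against 17.3% of all genes with at least 1.

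The strongest gained peak was in an intron of *Hfm1*, at chr5:106920637-106920970, with a fold enrichment of 8.18 (6.10 to 10.8), 49 fragments, a −log10 q of 28.6 and 3 rows. Its sequence was repeated, and 0% of the 12 50-mers sampled in it occurred only once in the genome, so the copy from which its reads came cannot be told. The next was in an intron of *Mcm9*, at chr10:53580384-53581339, with 4.25 (2.81 to 6.20), 25 fragments, a −log10 q of 8.07, 3 rows and wholly unique sequence. The third was in an intron of *Exo1*, at chr1:175890066-175890744, with 3.60 (2.29 to 5.42), 21 fragments, a −log10 q of 5.44, 2 rows and 11.5% unique 50-mers. The others were weak promoter peaks: that of *Mei1*, and peaks at internal starts of *Ankrd31* (chr13:96785640-96786243) and *Xrcc3* (chr12:111809578-111809973), each with a fold enrichment of 3.27 and 19 fragments. The *Xrcc3* peak lay on 1 row only. By comparison, the strongest promoter peaks of the members were of 93.3% or more unique 50-mers in WT and 94.1% or more in cKO.
The middle 300 bases of the gained *Hfm1* peak, chr5:106920654-106920953 on the reverse strand, on which the gene lies, are shown from the GRCm38.p6 sequence because it was the strongest gained peak and its repeats can be read in it. Capitals mark CCAAT on either strand, which began at bases 9, 50, 118, 184, 274 and 287, and no other motif of the 7 matched.
Hfm1 gained peak: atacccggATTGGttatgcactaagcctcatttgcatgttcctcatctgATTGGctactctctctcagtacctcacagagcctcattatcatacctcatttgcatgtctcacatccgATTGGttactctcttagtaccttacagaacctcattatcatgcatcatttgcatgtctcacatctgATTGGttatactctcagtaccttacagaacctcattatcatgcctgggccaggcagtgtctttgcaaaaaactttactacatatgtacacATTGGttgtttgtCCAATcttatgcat

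Several members shared their promoter with a neighbour. For 10 of 31 members in WT the strongest promoter peak also covered the start of another protein-coding gene, and in cKO this was so for 10 of 32. Over all genes with a promoter peak the shares were 22.9% and 22.3%. The members and neighbours were *Zcwpw1* with *Mepce*, *Spata22* with *Aspa* and *Gm49340*, *Palb2* with *Dctn5*, *Hsf2bp* with *Rrp1b*, and *Rad51c* with *Tex14*. Further ones were *Xrcc3* with *Zfyve21*, *Mcm8* with *Trmt6*, *Trip13* with *Brd9*, *Ccnb1ip1* with *Parp2* and *Mus81* with *Cfl1*. A value for such a peak is the enrichment at its summit, which may lie nearer to the start of the neighbour. Where the summits lay was not checked. For the 21 members open in both lists whose strongest peaks covered no other coding start, the median log2 ratio was 0.65, against 0.63 for the 8152 such genes in all.

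The promoter sequences of 26 of the 33 genes were found in the RefSeq table, as 30 starts, and *Spo11*, *Meiob*, *Tex15*, *Mcmdc2*, *Exo1*, *Rad50* and *Nbn* were not. In the 250 bases before the start, the median GC content was 59.0% for the members and 56.0% for all 20150 starts. The ratio of observed to expected CpG was higher, at 0.85 for the members against 0.55. The E2F motif was found in 9 of the 30 windows, against 13.2% of all starts, and the STRA8 element in 4, against 6.91%. The GC box was found in 15 windows, against 44.1% of all, the CCAAT box in 13, against 35.0%, the MYB motif in 6, against 27.9%, the cAMP response element core in 3, against 7.57%, and the E-box in 2, against 6.78%. The E2F motif and the GC box can overlap, and both are more frequent in GC-rich sequence. Genes with several starts were counted once per start, so the windows are not independent. Both *Prdm9* windows held the E2F motif, both *Zcwpw1* windows the MYB motif and both *Rad51c* windows the GC box. The CCAAT box was in both *Mlh3* windows, which overlap. A match is a description of the letters and says nothing of whether a factor binds.

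Further genes of the pathway, from a list of 52 of which 51 were found in the annotation, were counted in the same way. A promoter peak was present for 48 of them (94.1%) in WT and 49 (96.1%) in cKO, against 49.7% and 56.7% of all genes. The 48 open in both lists had a median log2 ratio of 0.71, against 0.65 for all genes. *Tex11*, an X-linked gene of crossover formation, was the only one open in cKO alone, against 7.31% of all genes. It had a fold enrichment of 5.24, a −log10 q of 12.5 and 3 rows. The genes closed in both lists were *Ccdc36* (IHO1), which recruits REC114 and MEI4 to the axes, and *AI481877* (SHOC1), an XPF-like factor of crossover formation. Over all genes, 43.0% were closed in both lists. Of these 51 genes, 14 (27.5%) had at least 1 gained peak, against 23.6% of all genes. A lost peak was held by 1, *Rad51b*, against 2.20% of all genes.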

How the data were processed

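ATAC-seq was carried out by the authors on pachytene spermatocytes with the Omni-ATAC protocol. As their methods and the labels state, the authors trimmed reads (Trim Galore), aligned them to mm10 (Bowtie2), removed duplicates (Picard) and mitochondrial reads, called peaks in each library (MACS2 with a genome-wide background), dropped those in blacklisted regions and intersected the replicates of a genotype into 1 deposited list. No filter on mapping quality was stated. Fold enrichment was deposited as a ratio of summit pileup to background, on a linear scale. The −log10 q that the authors deposited comes from the same peak caller, and their −log10 p was not used. The deposited score is the −log10 q times a constant, and the column that gives the summit offset (unit: other) was deposited with them. Signal tracks and peaks of single libraries were not analysed here.

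Rows that carried 1 peak name were joined into 1 peak. Fold values lay on a grid set by whole fragments (tolerance 0.02), which gave the background and the fragments at each summit, and thus the depth of 1 library per list. For the other 3 libraries of a genotype, depth is unknown. Genes and starts were from GENCODE vM21, and sequences from RefSeq GRCm38.p6. Groups were taken from the genotype labels. No test was run, because each genotype is 1 list. Poisson intervals (95%) cover counting error only, and the order-statistic interval of a median (95%) reflects the spread between genes. The scripts were tested on simulated data.

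The members, the lists of other genes and the motifs were chosen with earlier results of these data known. Fuller values were given by rule for members with a promoter peak in 1 list or none, the 3 highest and the 3 lowest log2 ratios, the 3 strongest WT promoters, the 3 widest cKO peaks, the 3 strongest gained peaks and every lost peak. Other values and all printed sequences but that of *Mei1* were chosen after the values were seen. Alternatives varied the promoter window, the −log10 q minimum, the rows required, the list lengths, the unit of counting and the annotation. Python 3.11.15, numpy 2.4.6, pandas 2.3.3, scipy 1.17.1 and matplotlib 3.10.9 were used.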

Additional observations from a re-analysis of the deposited data

How the results depend on the processing

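Of 109 alternative values, 92 were labelled as close to the reported ones and 17 as moved. The label was loose: 23 members with a WT promoter peak, against 31 reported, still counted as close. It also took in counts of lost peaks, which were 0 in all 8 alternatives. Counts and widths cannot change sign, so a change of direction could be seen only in log2 ratios. The median log2 ratio of the members was above 0 in all 11 of its alternatives, at 0.65 to 0.88. The number of members with a promoter peak ranged from 23 to 31 in WT and from 24 to 32 in cKO, the low ends being RefSeq windows, for which only 26 members had an entry. When a peak had to be centred in the promoter, the numbers were 24 and 25, against 39.4% and 43.2% of all genes. Then 3 members were open in cKO only (*Rnf212*, *Rad50* and *Trip13*), against 8.19% of all genes, and 2 in WT only (*Spo11* and *Mlh3*), against 4.39%. *Mnd1*, *Nbn*, *Zcwpw1*, *Rec114*, *Mei1* and *Mus81* were open in neither list. Enrichment at least 2 times higher was seen for 0 members, against 6.91% of all genes open in both lists. The difference between the median log2 ratios of members and of all genes ranged from 0.00 to 0.03, and lost peaks stayed at 0 throughout. With a −log10 q minimum of 5, 0 members were open in cKO only, against 7.14% of all genes. There 3 gained peaks in 3 members were left, against 17.3% of all genes with at least 1. When the other list was kept whole the member count was the same, against 12.8%. With a −log10 q minimum of 10 there were 2 gained peaks in 2 members, against 14.8% of all genes. Lists of equal length gave the same count, against 8.80%, and 0 members open in cKO only, against 3.80%. At the minimum of 10 the member open in cKO only was *Spata22*, against 8.56% of all genes, and *Mei1* was open in neither list. With peaks on 3 or more rows, 2 members (*Mei4* and *Mei1*) were open in cKO only, against 8.54% of all genes. With rows as units there were 15 gained peaks. With fragments at the summit in place of fold enrichment, the median log2 ratio was 0.88 for the members and 0.86 for all genes. Then 10 members were at least 2 times higher, against 28.8% of all genes.

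The RefSeq windows and the restriction to peaks that cover no other coding start were chosen after seeing the data. No paired analysis was possible because the results come from no test and each genotype is 1 merged list. Replicates were not left out in turn for the same reason. The values of a list come from 1 library, and how its depth bears on weak peaks was not tested.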
